A study of Saccharomyces cerevisiae with 328 samples.

Results

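The genes of oxidative phosphorylation were followed through 328 yeast deletion strains, in which 53 of them could be measured. They were taken by name, as the rows that begin with COX, QCR, ATP, SDH, CYC or NDE followed by a number, together with CYT1, COR1, RIP1 and NDI1. That gave 64 of 6650 named rows, of which 54 held any value and 53 held a value in at least 80% of strains. The 53 comprise 36 genes for subunits or electron carriers (of 40 listed) and 16 genes for factors that assemble the complexes. CYC8, the remaining row, matches by name but encodes a general transcriptional corepressor, and it was left out of all sets of subunits and assembly factors below (median over strains -0.41).

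The series holds polyA RNA of 328 strains of Saccharomyces cerevisiae in exponential growth, each with a single gene deleted, with 1 library per strain and the deleted open reading frame as the only strain label. Values are log2 ratios of a strain to the wild type, so a level of a gene, or a comparison of levels between genes, cannot be read from them. Every strain shares the same wild type reference, and a value that all strains have in common may belong to that reference. Strains were grouped by the function of the deleted gene. Mitochondrial gene expression had 5 strains (MRPL36, IMG2, SLM3, IRC3 and RPO41) and mitochondrial fatty acid synthesis 5 (ETR1, CEM1, OAR1, HFA1 and MCT1). Other mitochondrial functions had 13 strains, proteins of the small cytosolic ribosomal subunit 18, and proteins of the large subunit 14. Mediator had 6 strains (SRB8, SSN2, SOH1, SRB2, SIN4 and CSE2), the SWR1 and NuA4 chromatin complexes 5 (SWC5, VPS71, YAF9, EAF1 and EAF6), and the Rpd3 and Set3 deacetylase complexes 4 (SIN3, UME6, ASH1 and SNT1). The tRNA-modifying Elongator and URM1 pathways had 6 strains and iron uptake 2 (FTR1 and CCC2). The 250 other deletions were the reference, and the strains of a class were its replicates, so p-values measure the spread between strains lacking different genes.

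Yeast mitochondria have no proton-pumping complex I. Electrons enter through single-protein NADH dehydrogenases and through succinate dehydrogenase, pass to complex III, cytochrome c and complex IV, and the proton gradient drives the ATP synthase, complex V. On glucose yeast ferments and represses much of this machinery; the Hap2/3/4/5 activator, which binds CCAAT boxes and is limited by its subunit Hap4, raises it when repression is lifted. A few subunits are encoded in mitochondrial DNA and are made by the mitochondrial ribosome.

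CCAAT boxes of the extended form TNATTGGT were common in the promoters of the subunit genes, which is why a few are shown. In the 500 bases before the start codon, on either strand and with overlapping matches allowed, 16 of 36 subunit genes held it (44.4%), against 405 of 4417 tested genes (9.17%) and 516 of 6002 protein-coding genes (8.60%) of the RefSeq annotation of the R64 genome. The share was 5 of 9 genes of complex IV, 7 of 13 of complex V, 2 of 8 of complex III, 2 of 4 of the entry enzymes and 0 of 2 of cytochrome c, and 2 of 16 assembly factors (12.5%). The bare CCAAT, which overlaps the longer motif, was in 33 of 36 subunit promoters (91.7%) and in 63.2% of tested genes. The windows below run 5′ to 3′ on the strand of the gene, with the motif or its reverse complement in capitals. They lie at chrVIII:209477-209506 (+ strand) for COX6, chrXII:225360-225389 (- strand) for COX12, chrXI:408149-408178 (- strand) for ATP7, chrXVI:408916-408945 (- strand) for ATP4, chrIV:1496712-1496741 (- strand) for QCR7 and chrXI:171429-171458 (- strand) for SDH1.
COX6: gaaaagggaccTAATTGGTccggtcaaagc
COX12: tcataacattgACCAATCAattttcagaaa
ATP7: gtaaaagatacACCAATTAccacttgctgc
ATP4: atcaatattgaACCAATCAcgacgcttttt
QCR7: atcttgttttgACCAATCAggagcgacgcg
SDH1: ggcgggggtggACCAATCAcagcgcagaac
In SDH1 the motif begins 318 bases before the start codon. A match is a run of letters, and binding was not measured.

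Some properties of the libraries bear on every value. In 54 libraries the deleted gene was measured and did not lie below -0.5, so it does not bear out their labels. The 54 include RPO41, ETR1, SOH1, UME6, CCC2, EAF1, YAF9, 4 small subunit strains (RPS1A, RPS16A, RPS10B and RPS19B) and the libraries labelled THP1 (0.81) and GSH1 (-0.23). A mixture model on the other genes split the libraries into 4 groups of 96, 81, 79 and 72 strains, called batches here. Between them lay 39% of the variance of 2142 genes, but 2110 genes had themselves defined the split. The labels do not name these batches, and whether they are technical was not tested. Values are therefore given as deposited and, where stated, around the mean of the strain's batch. Sequencing depth is unknown.

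Of the subunit genes, 25 of 36 had a median over strains above that of the wild type and 11 below it. The median of the 36 medians was 0.19, against -0.12 over all 4499 tested genes, where 1716 of 4499 medians were above 0. Medians were above 0 for 11 of 13 genes of complex V and 7 of 9 of complex IV, while complex III was divided, with 4 genes above 0 and 4 below. With each strain centred on its own median, 30 of 36 subunit genes lay above 0, against 2291 of 4499 genes. Because cells were measured in bulk, fewer cells with the mRNA and less mRNA per cell cannot be told apart.

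NDE1, which oxidises cytosolic NADH at the outer face of the inner membrane, ran from -1.56 in the GCR2 strain to 1.79 in YNL120C, with a median of -0.12. SDH3, a membrane anchor of succinate dehydrogenase, had a median of 0.57 and was above 0 in 316 of 328 strains. SDH4, the other anchor, ran from -1.37 to 2.35 around a median of 0.25, the widest spread of any subunit gene (SD 0.86). SDH3, by contrast, had an SD of 0.38. In complex III the lowest median was that of QCR6, the acidic hinge subunit, at -0.31, and the highest that of QCR10 at 0.38. QCR6 was below 0 in 267 of 328 strains and QCR10 in 81, so these subunits of the same complex sat on opposite sides of the wild type in most strains. RIP1, the Rieske iron-sulfur protein, had a value in 66.2% of strains and was not tested. It ran from -0.18 to 2.19 there, with a median of 0.42.

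In complex IV the lowest median was -0.29, in COX4, and the highest 0.58, in COX5B. In complex V it was -0.22 in ATP5, the stalk subunit that confers oligomycin sensitivity, and 0.46 in ATP7, a subunit of the same stalk. ATP5 was above 0 in 97 of 328 strains and ATP7 in 311. The subunits of the ATP synthase were also the least spread, with a median SD of 0.38 over 13 genes against 0.47 over all tested genes, and ATP18 had the lowest SD of any member (0.26).

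Both genes for cytochrome c, the mobile carrier between complexes III and IV, lay on opposite sides of the wild type. CYC1, the main aerobic form, ran from -2.05 in YJL175W to 0.87 in the HXK2 strain with a median of -0.32, and was below 0 in 270 of 328 strains. CYC7, the minor form that rises in stress and low oxygen, ran from -0.72 to 3.29 in the ISC1 strain with a median of 1.02, and was above 0 in 273 of 316 strains. CYC7 had the highest median of all members and the largest spread around the batch mean (SD 0.72), while its correlation with CYC1 over strains was weak (r = 0.14 as deposited, 0.12 around the batch mean).

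The alternative forms of subunit 5 of complex IV did not move together either. COX5A, the aerobic form, ran from -1.95 to 1.43 with a median of 0.22. COX5B, the hypoxic form, ran from -1.26 to 1.97 with a median of 0.58. Their correlation over 328 strains was -0.16 as deposited and -0.07 around the batch mean, where the lowest of 630 pairs of subunit genes was -0.09. As deposited the lowest pair was -0.56, and centred on the strain median COX5A and COX5B stood at 0.00.

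Among assembly factors, 5 of 16 medians were above 0 and 11 below. ATP11, a chaperone of the F1 part of the ATP synthase, was below the wild type in all 321 strains with a value. It ran from -2.83 to -0.45 around a median of -1.34, the lowest of any member. COX14, which regulates synthesis of the mitochondrially encoded Cox1, followed at -0.54. COX18, which inserts Cox2 into the membrane, was highest at 0.62, next to COX10 (0.50), an enzyme of heme a synthesis. CYC3, the heme lyase of cytochrome c, was the assembly factor with the largest spread around the batch mean (SD 0.52), followed by COX18 (0.51), and QCR9 of complex III (0.50) came next among all members.

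**Figure D1:**
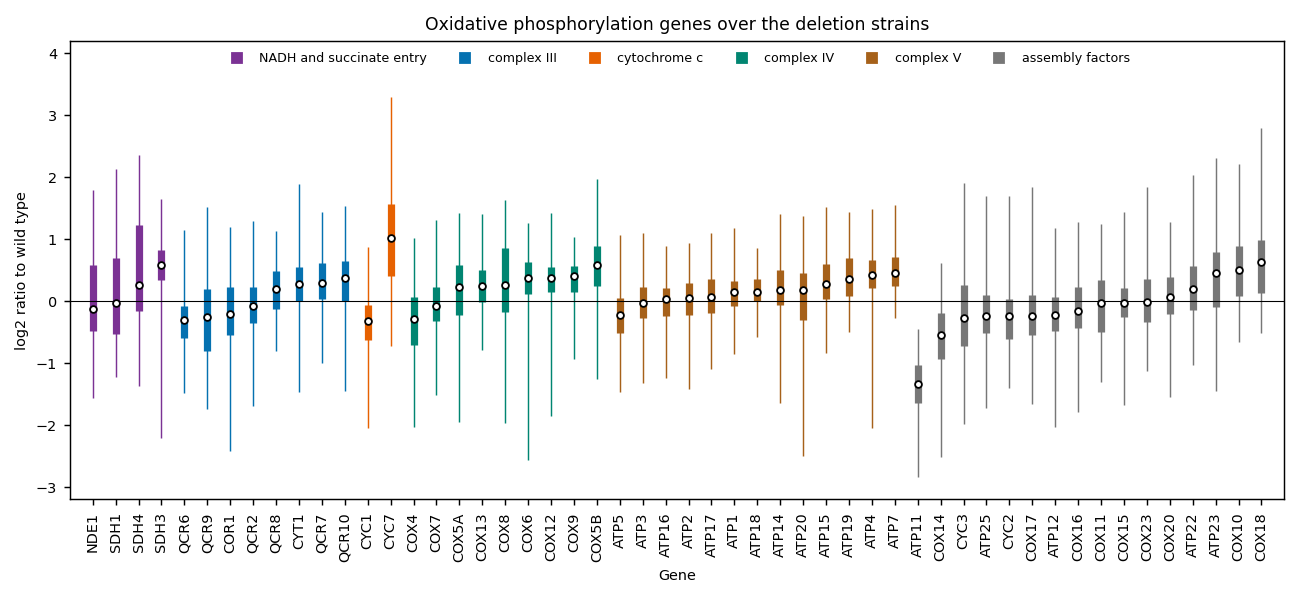
Log2 ratio to the wild type (vertical axis) of 52 genes, ordered within each complex by the median. Circles are medians over strains, thick bars run between the quartiles and thin lines between the lowest and highest strain; CYC7 (1.02) and ATP11 (-1.34) hold the highest and lowest medians.

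The other subunits lay between these extremes. In complex III the medians of QCR9 (-0.25), the core proteins COR1 (-0.21) and QCR2 (-0.07), QCR8 (0.19), cytochrome c1, CYT1 (0.28), and QCR7 (0.30) filled the gap. COX7 (-0.07) was the other complex IV gene below the wild type, and COX13, COX8, COX6, COX12 and COX9 had medians of 0.25 to 0.41. In complex V the F1 subunit ATP3 was at -0.04, while ATP16, ATP2, ATP17, ATP1, ATP18, ATP14, ATP20, ATP15, ATP19 and ATP4 ran from 0.03 to 0.41. SDH1, the flavoprotein of succinate dehydrogenase, had a median of -0.04 over 280 strains. Of the assembly factors, COX16, COX11, COX15, COX23, ATP25, ATP12, CYC3 and CYC2 had medians of -0.28 to -0.01, COX17 -0.23, COX20 0.06, ATP22 0.20 and ATP23 0.46.

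No value was present for 10 rows. They are the 5 mitochondrially encoded genes COX1, COX2, COX3, ATP6 and ATP8, the NADH dehydrogenases NDI1 and NDE2, the iron-sulfur subunit SDH2, and the assembly factors ATP10 and COX19. NDE2 could therefore not be compared with its paralog NDE1.

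Some subunit genes differed far more between the inferred batches than others. The SDH4 means in batches 1 to 4 were 1.62, -0.25, -0.05 and 0.30, a range of 1.87, so that batches took 79.5% of its variance. NDE1 (69.3%), COX8 (68%), SDH1 (65.7%), COX5A (59.2%) and ATP2 (58.8%) followed among subunits, with 38.8% as the median of 36 and 25.1% over all tested genes. At the other end ATP14 (1.18%), CYC1 (3.13%), COX12 (4.93%) and SDH3 (8.09%) hardly differed between batches. Batch 1 was high for NDE1, SDH1, SDH4, CYC7, COX8 and COX5A and low for COR1 and ATP20. Missing values were uneven too: SDH1 was empty in 35.4% of strains of batch 3 and in 1.04% of batch 1.

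**Figure D2:**
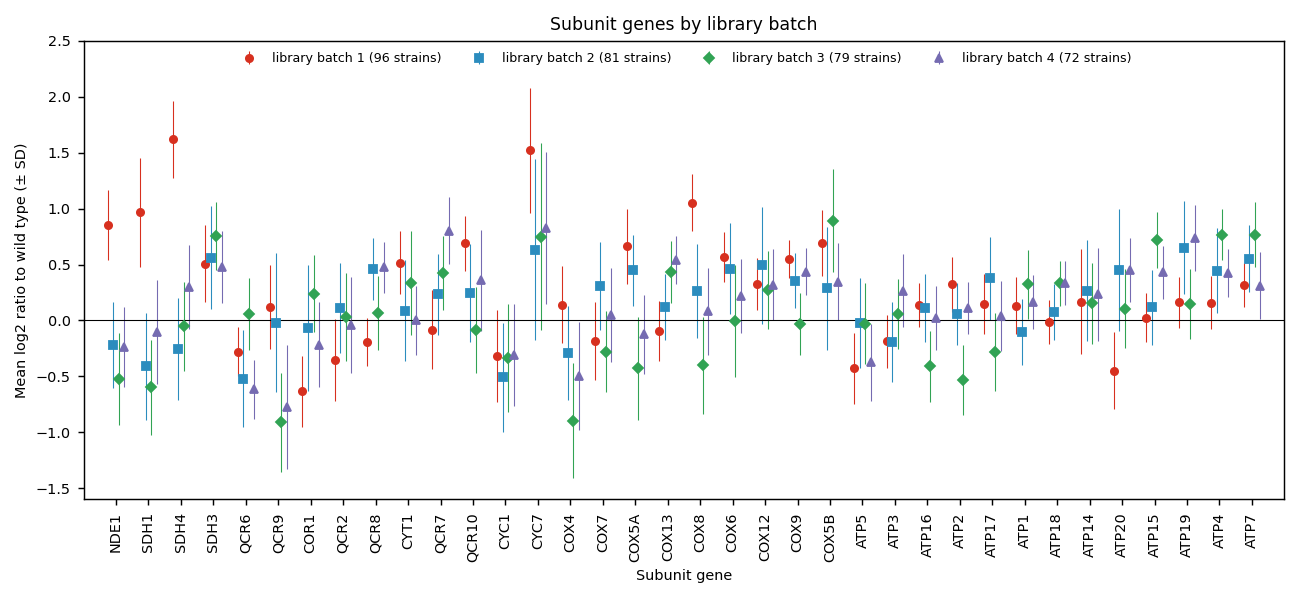
Mean log2 ratio to the wild type, with SD over strains, of each of the 36 subunit genes in the 4 library batches (96, 81, 79 and 72 strains). SDH4 stands at 1.62 in batch 1 and between -0.25 and 0.30 in the others, while ATP14 and CYC1 stay close together.

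Around the batch mean the subunit genes varied together across strains. Over 630 pairs of subunit genes the median Pearson r was 0.26, and 97.9% of pairs were positive, against a median of 0.02 and 56.7% positive over 2224995 pairs of other genes with a value in every strain. Within a complex the median was 0.37 for the 6 pairs of entry enzymes, 0.27 for the 28 of complex III, 0.23 for the 36 of complex IV and 0.31 for the 78 of complex V. Between complexes the medians were 0.31 for III with V, 0.25 for IV with V and for III with IV, and 0.29, 0.26 and 0.21 for the entry enzymes with III, V and IV. They were lower with cytochrome c, at 0.23 for III, 0.19 for the entry enzymes, 0.16 for IV and 0.15 for V. The highest single pairs were COR1 with QCR6 (0.56), both of complex III, and ATP1 with CYT1 (0.55), which encode the alpha subunit of the F1 part of the ATP synthase and cytochrome c1. These coefficients are descriptions over strains that share a wild type reference, and as deposited the subunit median was 0.15 with 69.4% of pairs positive, against 0.06 and 59.1% for other genes.

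Pairs with an assembly factor had lower coefficients. Over 576 pairs of a subunit with an assembly factor the median r was 0.06 and 71.2% were positive, and over 120 pairs among assembly factors it was 0.10. ATP15, the epsilon subunit of the F1 part, correlated most with the mean of the other subunits (0.66), followed by ATP7 (0.62) and QCR8 (0.60). COX20, the chaperone of Cox2, was the highest assembly factor (0.35), and ATP23, a protease that matures Atp6, the lowest (-0.17). ATP20 (0.31) and CYC7 (0.30) were the subunit genes least tied to the rest.

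**Figure D3:**
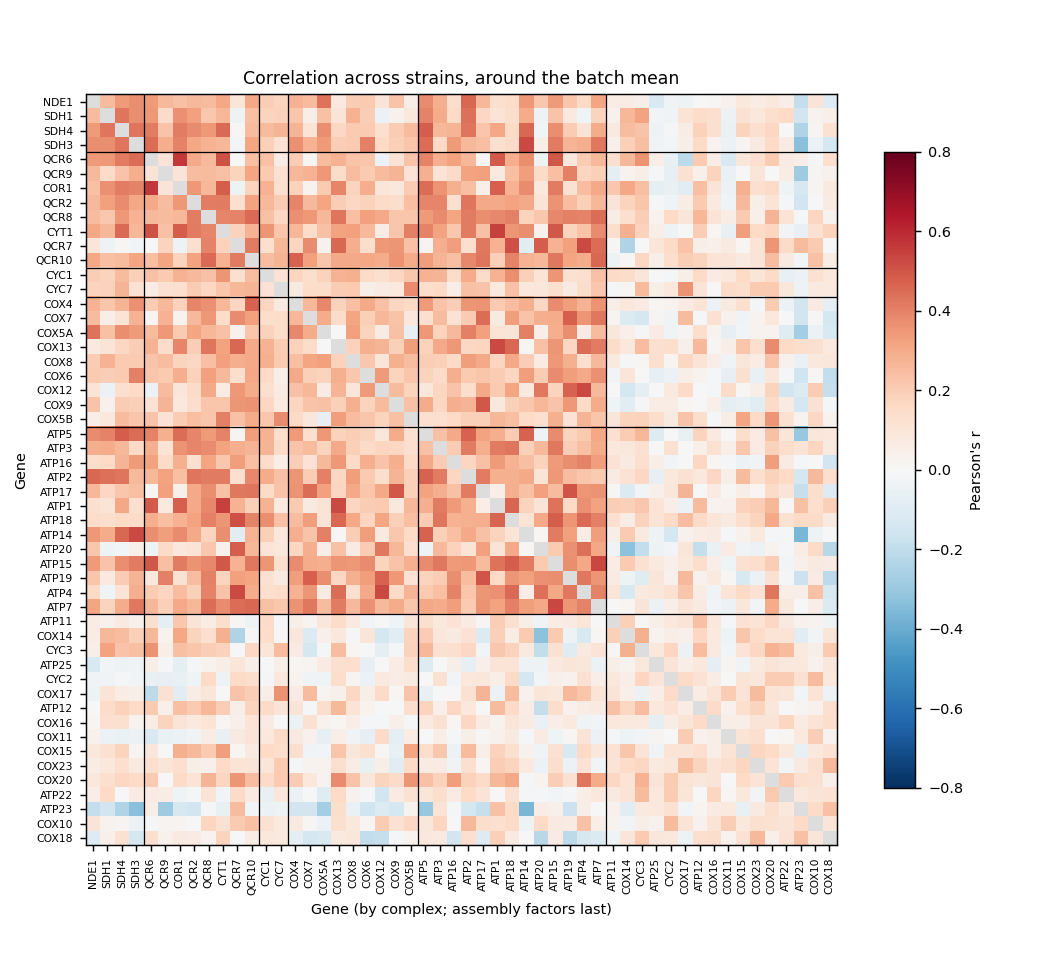
Pearson's r across strains, around the batch mean, for each pair of 52 genes (colour scale from -0.8 to 0.8), with lines between the complexes and the assembly factors last. The block of 36 subunits is positive in 97.9% of its pairs (median r 0.26), and the strip against the assembly factors is pale (median 0.06).

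Averaged per complex, the strain means of complexes III and V correlated at 0.80, of IV and V at 0.77 and of III and IV at 0.72 around the batch mean, over 328 strains. The cytochrome c mean was less tied to complex V (0.37). It averages 2 genes, against 8, 9 and 13 for complexes III, IV and V, so these coefficients are not directly comparable. Outside the complexes the genes most like the subunit mean, around the batch mean, were INH1 (r = 0.68), which encodes the inhibitor of ATP hydrolysis by complex V, HXT7 (0.62), a high-affinity glucose transporter, and PET9 (0.60), the main ADP/ATP carrier. They are the 3 highest of 4446 non-member genes by this coefficient around the batch mean. As deposited PET9 (0.62), HXT7 (0.58) and GPH1 (0.57), glycogen phosphorylase, were highest and INH1 was not among the first 10. Of preset lists, 17 stress genes had a mean that correlated at 0.57 with the subunit mean, 39 partner genes (other assembly factors, carriers and regulators) at 0.55 and 14 TCA cycle genes at 0.37. Glycolysis genes stood at 0.25, 70 mitochondrial ribosomal protein genes at 0.38, and cytosolic ribosomal protein genes at -0.23.

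The mean of the 36 subunit genes ran from -0.48 to 0.93 over strains, with a median of 0.18. The highest were the strains lacking HXK2 (0.93), the hexokinase needed for glucose repression, and VIP1 (0.85), a kinase that makes inositol pyrophosphates, then the library labelled THP1 (0.81), a factor of mRNA export, and SAP155 (0.65), a partner of the phosphatase Sit4. TPS1, trehalose-6-phosphate synthase, came next at 0.62. Lowest were RHO4 (-0.48), a small GTPase, PUN1 (-0.41), a plasma membrane protein, the library labelled GSH1 (-0.31), the enzyme of the initial step of glutathione synthesis, and RPS27B (-0.30). Around the batch mean HXK2, VIP1, THP1 and SAP155 still held the highest places (0.67, 0.69, 0.76 and 0.50), and RHO4 (-0.64) and PUN1 (-0.58) the lowest, whereas GSH1 fell to rank 12 from the lowest and RPS27B to rank 6. Centred on the strain median, THP1 dropped to rank 58, and GSH1 became the lowest. The deleted gene itself stood at -1.58 in HXK2, -1.71 in TPS1, -1.95 in PUN1 and -3.01 in RPS27B, and had no value in VIP1, SAP155 and RHO4. These strains were picked for their extreme values, each rests on 1 library, and no test is given.

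In the HXK2 strain all 36 subunit genes stood above their batch mean, 28 of them by at least 0.5, against 7.15% of all genes in that library. The values around the batch mean ran from 0.19 in COX5B to 1.19 in CYC1, with COR1 at 1.08 and ATP1 at 1.05. As deposited, HXK2 held the highest value of all strains for 6 members: ATP1, ATP2 and ATP16 of the F1 part, COX9, CYC1 and ATP11. Around the batch mean it still ranked 1 for ATP1 and CYC1, but 3 for ATP16, 4 for COX9, 6 for ATP2 and 14 for ATP11. Assembly factors were raised as well, 11 of 16 by at least 0.5, among them CYC3 (0.84). Of 14 TCA cycle genes 5 were raised by at least 0.5, from MDH1, malate dehydrogenase, at 1.65 and CIT1, citrate synthase, at 1.38 above the batch mean, and the lowest was CIT2 at -0.18. In the same strain 33 of 70 mitochondrial ribosomal protein genes were raised by at least 0.5. By contrast 2 of 19 glycolysis genes and no cytosolic ribosomal protein gene were.

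In the SAP155 strain 17 of 36 subunit genes were at least 0.5 above the batch mean, against 4.57% of all genes, and 0 of the 15 assembly factors with a value were. None of the subunits lay that far below, against 5.47% of all genes. NDE1 and QCR9 led at 0.93 and CYC1 stood at 0.91, while SDH1 (-0.31), CYC7 (-0.24) and COX5B (-0.10) lay below their batch means. COX23, a copper-handling assembly factor, was at its lowest of all strains there (-1.13 as deposited). In the VIP1 strain 25 of 36 subunit genes were at least 0.5 above the batch mean, against 18% of all genes, led by CYC7 (1.47), COR1 (1.26) and QCR10 (1.21). There 13 of 17 stress genes were raised by at least 0.5, with a median of 1.61. In the library labelled THP1 31 of 36 subunit genes passed that size, but so did 30.3% of all genes, and 0 lay that far below (4.34%). As deposited, it held the highest value of all strains for 9 members, 4 of them in complex III (CYT1, QCR2, QCR6 and QCR8). Around the batch mean it still ranked 1 for CYT1, QCR2 and QCR8, and 2 for QCR6. The TPS1 strain had 19 of 36 past that size, against 8.19% of all genes.

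**Figure D4:**
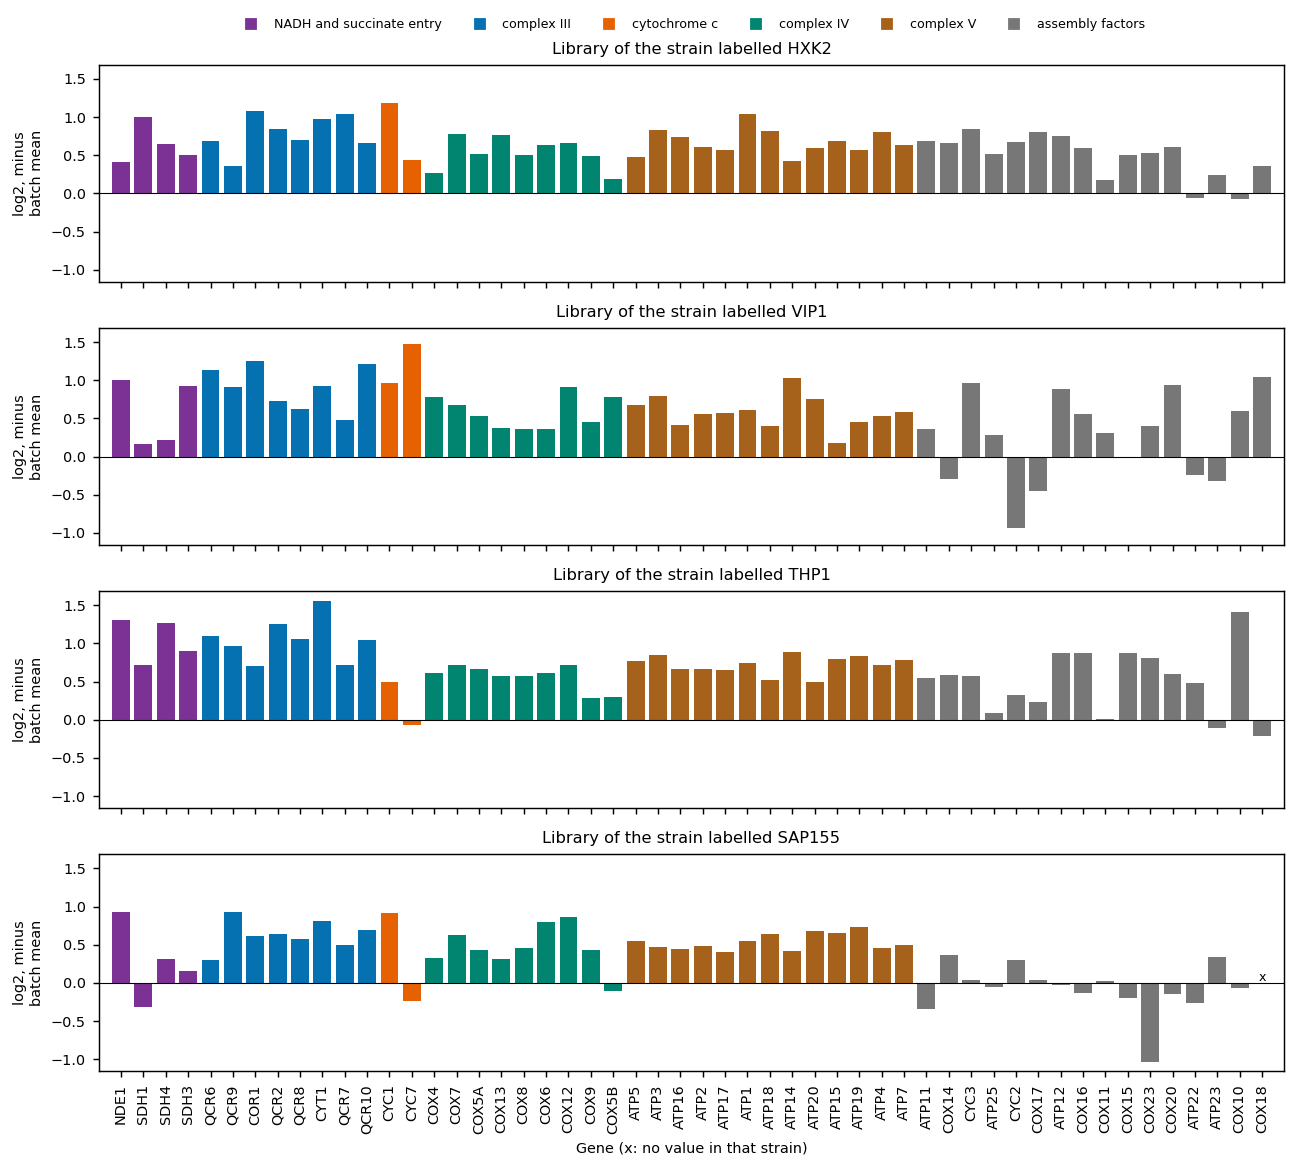
Log2 ratio minus the batch mean (vertical axis) of each gene in the 4 libraries with the highest subunit means, coloured by complex, 1 library per panel and no replicates. All 36 subunits are above 0 in HXK2 and VIP1, and in SAP155 0 of 15 assembly factors reach 0.5 and COX23 is lowest (-1.03).

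At the low end, 23 of the 34 subunit genes with a value in the RHO4 strain were at least 0.5 below the batch mean, against 15.7% of all genes, and 0 were that far above it (2.25%). COX5B (-1.40) and CYT1 (-1.25) led. In the PUN1 strain it was 20 of 35 below, against 15.1%, and 0 above (4.16%), again with COX5B lowest (-1.55), then COX4 (-1.24). Stress genes moved with them, 14 of 16 in RHO4 and 15 of 16 in PUN1 lying at least 0.5 below the batch mean; their part in the result was not tested. The library labelled GSH1 differed between complexes, since around the batch mean the complex III mean was -0.74, cytochrome c -0.74 and complex IV -0.37, but complex V -0.06. In it 11 of 36 subunit genes were at least 0.5 below the batch mean, against 13.5% of all genes, and 1 was that far above, against 29.8%. In the RPS27B strain it was 12 of 35 below, against 21.7%, and 1 above (9.39%); chromosome XI, which carries ATP7 and SDH3, was raised there. As deposited, the ASF1 library held the lowest value of all strains for SDH3 (-2.20), COX12 (-1.86), ATP4 (-2.05) and COX20 (-1.55) and the highest for COX18 (2.79). Its SD around the batch mean over all genes was 1.07.

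HAP4, named here after its values were seen, is a regulator of the partner list that was high in some of these strains. It had a value in 293 strains, from -0.73 to 2.54. The highest value was in TPS1 (2.54), and around the batch mean TPS1 (2.22), HXK2 (1.30) and SAP155 (1.18) ranked 1, 2 and 4 of 293. VIP1 (0.52) and the library labelled THP1 (0.37) ranked 51 and 74. HAP4 did not separate these from all strains with the lowest subunit means. Around the batch mean RPS27B (0.54) lay above VIP1 and THP1, PUN1 stood at 0.05 and RHO4 at -0.36. The library labelled GSH1 had no HAP4 value. Over all strains the relation was weak, with r = 0.23 between HAP4 and the subunit mean around the batch mean and 0.19 without HXK2 and SAP155, rank 283 of 4446 genes. It was no closer for the 16 subunit genes with TNATTGGT (0.21) than for the 20 without it (0.24). In the HXK2 strain subunit genes with and without that motif had the same median, 0.65. The bare CCAAT was in 33 of 36 subunit promoters, so this split cannot set genes with a CCAAT box against genes without one. HAP3 (0.02) and the repressor gene ROX1 (0.02) showed no such relation.

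Some member values lay on a chromosome whose genes were raised as a whole, or beside the deleted gene; chromosome copies themselves were not measured. In 16 strains the median of a whole chromosome was raised by over 0.4 (at most by 0.93), and 41 member values lay on such chromosomes. Centred and around the batch mean, 40 of the 41 were above 0, with a median of 0.78, against -0.08 for the other members of the same strains. The chromosomes were picked on this same scale with members among their genes, so values above 0 were partly fixed by that choice. Chromosome IV carries 8 members, which stood at 0.59 to 1.08 in the RPP1A strain and at 0.54 to 1.12 in PEP8. In RPS27B chromosome XI was raised by 0.83, with ATP7 at 0.78 and SDH3 at 0.39. For 8 members with a deletion within 1000 bases, the member's rank in that strain ran from 13 to 293 from the lowest, with both high and low values among them.

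Strains with impaired mitochondrial gene expression or mitochondrial fatty acid synthesis, which the respiratory chain needs for its mitochondrially encoded subunits and its lipoylated and acylated partners, were compared with the 250 other deletions. Of the 53 members 0 passed the limma test at an adjusted p of 0.05 in either class or in both together, where 1, 0 and 1 of 4499 genes passed (0.0222%, 0% and 0.0222%). With library batch as a term the counts of members were 0 as well, against the same percentages of all genes. Unadjusted p-values under 0.05 were found for 14 of 53 members in both classes together, against 3.05% of all genes, for 3 in mitochondrial expression (1.69%) and for 9 in fatty acid synthesis (5.38%). Members were measured in the same strains and many varied together, so these are not counts of separate observations.

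In both classes together 31 of 36 subunit genes had a negative difference, against 2605 of 4499 genes. They were 13 of 13 of complex V, 8 of 8 of complex III, 7 of 9 of complex IV, 2 of 2 of cytochrome c and 1 of 4 of the entry enzymes. In the fatty acid strains alone 5 of 9 complex IV genes were negative. The 36 genes share their strains and varied together, so each sign is not a separate observation. The median over subunits was -0.17, against -0.03 over all genes, and -0.20 with the batch term. The subunit mean around the batch mean was -0.15 ± 0.14 (SD, n = 5) in expression strains, -0.25 ± 0.13 (SD, n = 5) in fatty acid strains and 0.01 ± 0.19 (SD, n = 250) in other deletions. It ran from -0.41 to -0.06 in the fatty acid strains and from -0.30 to 0.05 in the expression strains, within the range of single other deletions. Leaving out the 54 libraries whose deleted gene was not lowered, RPO41 and ETR1 among them, 0 members passed and the median over members went from -0.13 to -0.16. Assembly factors did not share the sign in expression strains, where 13 of 16 were positive with a median of 0.19.

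Examples, chosen for the smallest p, are ATP14 and QCR2. ATP14, subunit h of the ATP synthase, ran from -0.62 to 0.52 with a median of -0.21 in the 10 strains. It averaged -0.19 ± 0.37 (SD, n = 10) against 0.22 ± 0.43 (SD, n = 250), lower by 0.41 ± 0.14 (SE; limma adjusted p = 1.00), and 9 of 10 strains were below the median of other deletions. QCR2, a core protein of complex III, ran from -1.03 to -0.34 with a median of -0.68 in the 5 fatty acid strains, below the median of other deletions in all 5. The difference was -0.65 ± 0.19 (SE; limma adjusted p = 0.847). Of the fatty acid strains 4 are in batch 1, and for the entry enzymes the sign turned with the batch term, from a median difference of 0.22 to -0.41. Compared directly, 0 of 4499 genes differed between both mitochondrial classes at an adjusted p of 0.05 with limma, and 3.45% had an unadjusted p under 0.05.

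Strains lacking a protein of the small ribosomal subunit had 1 member that passed. COX17, the copper chaperone that delivers copper to complex IV, fell. Its value ran from -1.66 in the RPS30B strain to 0.36, with a median of -0.62, and averaged -0.64 ± 0.51 (SD, n = 18) against -0.19 ± 0.44 (SD, n = 250) in other deletions. The difference was -0.46 ± 0.11 (SE; limma adjusted p = 0.00833), with 16 of 18 strains below the median of other deletions though the ranges overlap. With the batch term it was -0.30 ± 0.08 (limma adjusted p = 0.0227). Of all genes 2.38% passed in either direction and 1.8% as lower, and 3.65% and 2.58% with the batch term, so 1 of 53 members is near the background. Unadjusted p-values under 0.05 were found for 10 members, against 19.2% of all genes.

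That call rests partly on 1 library: without RPS30B, 0 members passed and COX17 stood at -0.40. Without RPS9B, RPS16A or RPS19B 3 members passed each time, and without RPS18B or RPS1B 2. Leaving out the 54 libraries whose deleted gene was not lowered gave COX17 at -0.53 ± 0.12 (limma adjusted p = 0.00395). The assembly chaperone ATP12 (-0.44 ± 0.13, 0.036) and COX23 (-0.48 ± 0.14, 0.0399) then passed too. In the fit of all strains ATP12 stood at -0.36 ± 0.12 (limma adjusted p = 0.0621) and COX23 at -0.36 ± 0.13 (0.0985). Of 36 subunit genes 0 passed, 16 with a positive and 20 with a negative difference, and 4 had an unadjusted p under 0.05.

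Of 39 tested partner genes 2 passed in the same strains. PET117, an assembly factor of complex IV, fell by 0.50 ± 0.14 (SE; limma adjusted p = 0.0358), and COA2, another, rose by 0.41 ± 0.12 (0.04). Of 14 TCA cycle genes 2 fell, as did 3 of 19 glycolysis genes, 3 of 17 stress genes and 4 of 70 mitochondrial ribosomal protein genes, against 1.8% of all genes. Of the cytosolic ribosomal protein genes 14 rose and 4 fell. The 1.8% counts genes that fell, so it is no background for the rises. Each of these strains lacks a cytosolic ribosomal protein gene itself. The part of the deleted genes and their paralogs in both counts was not tested. Strains lacking a large subunit protein had 0 members past the test, against 0.2% of genes (9 of 4499) with limma. There 3 members had an unadjusted p under 0.05, against 9.31% of all genes, and 0 passed with the batch term (0.311%). COX17 ran from -1.05 to 0.57 with a median of -0.68 in them, and differed by -0.38 ± 0.12 (SE; limma adjusted p = 0.238). The difference between both ribosomal classes was not tested here.

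In the SWR1 and NuA4 strains the subunit genes leaned upward without passing. With limma 0 of 53 members passed, against 0.0222% of genes, 6 had an unadjusted p under 0.05 (10.8% of all genes), and 0 passed with the batch term (0.0445%). The complex IV mean lay between 0.53 and 0.63 in the 5 strains, averaging 0.58 ± 0.04 (SD, n = 5) against 0.21 ± 0.26 (SD, n = 250), and 9 of 9 complex IV genes had a positive difference. These values are as deposited, and all 5 strains are in batches 1 and 2, where the complex IV mean is higher (0.41 and 0.27) than in batches 3 and 4 (-0.05 and 0.15). The median difference over complex IV genes was 0.41, and 0.24 with the batch term. ATP17, subunit f of the ATP synthase, ran from 0.12 to 1.05 with a median of 0.82, differing by 0.59 ± 0.18 (SE; limma adjusted p = 0.259). The median over members was 0.12, against -0.09 over all genes. Without the 54 libraries whose deleted gene was not lowered, EAF1 and YAF9 among them, the medians were 0.02 and -0.15.

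The Mediator, Rpd3 and Set3, Elongator and URM1, and iron uptake strains had 0 members past the limma test and 0 with the batch term. The 13 strains of other mitochondrial functions were not tested as a class. The backgrounds were 0.0667% of genes in Mediator strains and 0% each in Rpd3 and Set3, Elongator and URM1, and iron uptake strains. With the batch term they were 0.156%, 0%, 0.0445% and 0%. Unadjusted p-values under 0.05 were found for 4, 0, 4 and 2 members, against 8%, 2.16%, 3.82% and 2.63% of all genes. In the Elongator and URM1 strains CYC7 ran from 1.27 to 3.04 with a median of 1.62, above the median of other deletions in 6 of 6, and differed by 0.87 ± 0.33 (SE; limma adjusted p = 1.00).

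**Figure D5:**
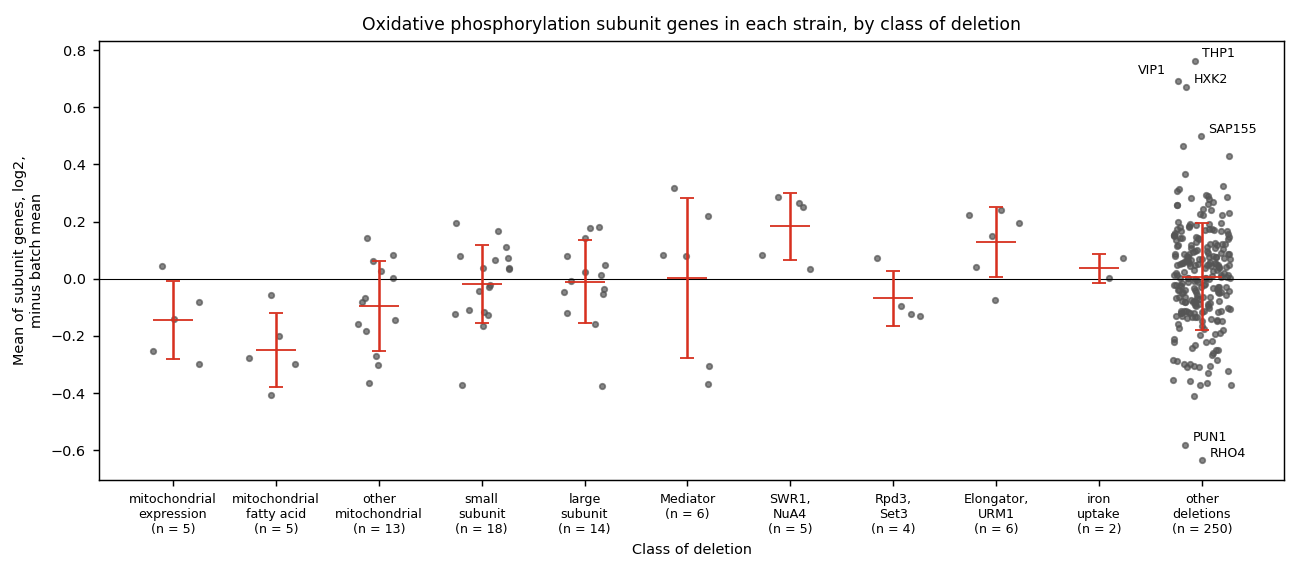
Mean over the 36 subunit genes minus the batch mean (log2, vertical axis) for each strain, by class of deletion, with class mean and SD in red and horizontal scatter for legibility. The fatty acid strains average -0.25, the SWR1 and NuA4 strains 0.18, and all classes overlap the 250 other deletions, where the 4 highest and 2 lowest strains are named.

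The 13 strains of other mitochondrial functions had a subunit mean around the batch mean of -0.10 ± 0.16 (SD). It was 0.01 ± 0.19 (SD, n = 250) in other deletions. Single strains of this class ran from -0.36 to 0.14, and of those named here only KGD1 stood above its batch mean. Around the batch mean, KGD1, which lacks a TCA cycle enzyme, had a subunit mean of 0.14 with 7 of 36 genes raised and 4 lowered by at least 0.5, against 4.42% and 18.1% of all genes. PCP1, without a protease of the inner membrane, stood at -0.36, PSD1, without the enzyme that makes phosphatidylethanolamine, at -0.30, and FLX1, without a carrier for flavin, at -0.27. UPS1 (-0.08), MRS3 (-0.16) and SAM37 (-0.18) were closer to their batches. Of the glucose-sensing and signalling strains, GPB2 stood at -0.31, RAS2 at -0.16 and GPA2 at -0.07. The GCR2 strain stood at 0.08. These strains are themselves among the other deletions, so they cannot be set against the range of that group.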

How the data were processed

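PolyA RNA was sequenced with 1 library per strain, per the labels' protocols. The authors deposited log2 ratios of each strain to the wild type, 255 strains in one table and 73 in another. The base of the logarithm is not stated; it was taken as log2 because a whole-chromosome shift reached 0.925, above the 0.693 a doubling gives in natural logarithms. Bowtie is the only tool in the submitters' processing notes. How reads were counted and scaled, which genome build was used and the Bowtie version were not given in the sources used here, and depth is unknown. The second table names no genes and was matched by position (gene means correlated at 0.979 without an offset, at most 0.0463 with one of up to 5 rows).

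Members and lists were chosen with earlier results of these data known. Empty cells stayed missing. Genes with values in at least 80% of strains (4499, of which 4420 were in the annotation) were tested in 1 fit over all groups with limma 3.58.1 (R 4.3.3, lmFit and eBayes). Each class except other mitochondrial functions was compared with the 250 other deletions, with Benjamini-Hochberg adjustment over all tested genes and a threshold of 0.05. The fit was tested on simulated shifts. Library batches came from a Gaussian mixture (4 components, 10 starts) on 4 principal components of 2110 genes without the members (scikit-learn 1.9.0); 5 components had a lower Bayesian information criterion (6751 against 6829). Python 3.11.15, numpy 2.4.6 and pandas 2.3.3 were used. Alternatives were other scaling, filters, references and terms, and leaving out strains; leaving out libraries whose deleted gene was not lowered, and strain means around the batch mean, were chosen after seeing the data.

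Named genes were members passing the test (up to 8 per class), the isoform pairs, the 4 members with the largest spread around the batch mean and the highest and lowest median of each complex, with partner genes only where they passed and a preset list of single strains; the 4 strains with the highest and lowest subunit means were also named. Other names were chosen after their values were seen.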

Additional observations from a re-analysis of the deposited data

Results flagged for a closer look

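Per class of 4 to 10 strains, the highest or lowest strain was compared with the rest by Dixon's criterion, over 42 sets of class and complex mean. Chance flags about 1 in 20 sets, and 6 were flagged, all as means of log2 ratios as deposited. The KTI12 strain had a cytochrome c mean of 1.257, while the other Elongator and URM1 strains lay between 0.65 and 0.84. SIN4 had a mean of 1.284 for the entry enzymes, with other Mediator strains between -0.40 and 0.22; SIN4 is the only Mediator strain in library batch 1, where these genes are high, and stood at 0.30 around its batch mean. RPO41 had a complex III mean of 0.173, other mitochondrial expression strains lying between -0.27 and -0.17, and the RPO41 gene itself was not lowered in that library. OAR1 had an entry mean of -0.473 and a cytochrome c mean of -0.982, against 0.47 to 0.70 and 0.18 to 0.40 in the other fatty acid strains, all of which are in batch 1 while OAR1 is in batch 2. Around the batch mean OAR1 stood at -0.50 and -1.04. SNT1 had a subunit mean of 0.328, against 0.00 to 0.06 in the other Rpd3 and Set3 strains, and 0.07 around its batch mean. What part the batches have in these values was not tested.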

How the results depend on the processing

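The count of 0 members called held in all tested classes but the small subunit strains under each alternative run. These were centring, complete genes only, a variance trend, another reference, and batch or deposited table as a term. Further runs had no strains with a shifted chromosome, or left out each strain in turn. In small subunit strains leaving out each strain gave 0 to 3 members against 1, and COX17 went from -0.51 to -0.40, passing in every case but that without RPS30B. Leaving out strains whose deleted gene was not lowered, an alternative chosen after seeing the data, gave 3 members there and changed no other count. Medians over members near 0 changed sign under some settings in the Mediator, large subunit and iron uptake strains, with no call behind them. As deposited, the median correlation over pairs was 0.15 for subunits and 0.22 within complex V, and centred on the strain median 0.20 and 0.19. No paired analysis was possible because each strain has 1 library and the replicate numbers only name strains. Unknown depth limits what an empty cell or a deep low in a single library can show.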
